A study of Mus musculus with 15 samples.

Results

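The mouse genes for 8 receptors that bind collagen were followed in lung metastases of a melanoma line taken from mice on 4 methionine diets. They were Ddr2 and Ddr1, the integrin subunits Itga1, Itga2, Itga10, Itga11 and Itgb1, and Lair1, chosen by 1 measured value: Ddr2 was the only gene of those tested that passed the test between the methionine deficient and the methionine adequate diet. All 8 were among 37620 gene entries in the tables, and all 8 were among the 16001 genes with enough reads to be tested. The value that chose Ddr2 was an adjusted p of 0.0435 in edgeR's quasi-likelihood test, and the lowest among the other 7 genes in that comparison was 0.194, for Itga1.

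Male C57BL/6J mice aged 8 weeks received 100000 B16-F10.1 cells by tail vein, and 21 days were allowed for lung metastases to form before 2 weeks on a test diet. Total RNA of the metastatic tissue, depleted of ribosomal RNA, was sequenced in 3 libraries of the deficient diet (0% methionine), 3 of the restricted diet (25%), 6 of the supplemented diet (300%) and 3 of the adequate diet, for which the labels give no percentage. The hosts were all of 1 sex and strain and carried the same line, a derivative of the B16 mouse melanoma, so reads of tumour and host are both mouse and are counted together. Whether the libraries are from different mice is not in the labels, so every p below measures the spread between libraries, which may be partly technical.

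Totals were 13714670 to 29994264 estimated reads in deficient libraries, 15209463 to 20687383 in restricted, 13107679 to 26362706 in supplemented and 18836108 to 23006314 in adequate libraries. All 11 melanocyte markers were detected in each diet, with a summed level of 17965 to 34768 CPM (counts scaled to library total) over the 15 libraries, so the tissue carried the markers of its label. Lung was present to different degrees, and 3 libraries stood apart. Deficient replicate 3 had 6216 CPM of alveolar type 2 markers, where the other libraries had 110.0 to 1741 CPM. Supplemented replicate 5 had 1567 CPM of skeletal muscle markers and little lung signal. Its Sftpc, an alveolar type 2 marker, was at 0.186 CPM, and 2 of 6 general epithelial markers were detected in it. Restricted replicate 2 also had little, with Sftpc at 2.32 CPM. The remaining libraries had 37.3 to 2159 CPM of Sftpc. In adequate replicate 1 the 10 most abundant genes took 46.5% of counts, against 18.2% to 31.7% elsewhere. In such tissue, fewer cells of a type and less RNA per cell cannot be told apart.

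Collagen is sensed by several unrelated receptor families. DDR1 and DDR2 are receptor tyrosine kinases with a discoidin domain that binds triple-helical collagen. DDR1 is typical of epithelial cells and DDR2 of mesenchymal cells such as fibroblasts. The integrin alpha subunits encoded by Itga1, Itga2, Itga10 and Itga11 each pair with the beta1 subunit, the product of Itgb1, which also pairs with alpha subunits that bind laminin or fibronectin. LAIR1 is an inhibitory receptor of immune cells that binds collagen and proteins with collagen-like stretches.

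The promoters of Ddr2 and Itgb1 are shown because Ddr2 set the adequate diet apart from the rest and Itgb1 was the most even gene across libraries, as described below. Each covers 250 bases before and 50 after the start that RefSeq gives on GRCm38.p6, on the gene's strand: Ddr2 at chr1:170088895-170089194 (minus strand) and Itgb1 at chr8:128685404-128685703 (plus strand). Capitals mark a TATA box (TATAAA, here read on the other strand) in Ddr2 and a GC box (GGGCGG) in Itgb1.

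Ddr2: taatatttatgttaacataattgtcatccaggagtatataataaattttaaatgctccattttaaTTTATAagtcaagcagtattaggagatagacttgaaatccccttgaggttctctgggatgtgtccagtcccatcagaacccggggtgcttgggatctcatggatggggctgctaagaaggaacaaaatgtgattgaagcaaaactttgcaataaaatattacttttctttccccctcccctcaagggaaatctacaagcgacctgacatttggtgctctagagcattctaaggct

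Itgb1: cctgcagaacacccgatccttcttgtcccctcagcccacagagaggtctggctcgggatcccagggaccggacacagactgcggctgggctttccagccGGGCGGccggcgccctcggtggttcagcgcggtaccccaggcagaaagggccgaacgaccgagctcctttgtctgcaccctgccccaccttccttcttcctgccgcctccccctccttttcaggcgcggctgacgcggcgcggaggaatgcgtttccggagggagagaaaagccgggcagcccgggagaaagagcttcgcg

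The Ddr2 window held 2 CpG pairs and was 39.0% G or C, whereas the Itgb1 window held 27 CpG pairs and was 67.3% G or C. The median of 32851 promoter windows of 300 bases was 7 CpG pairs and 52.7% G or C. Both strands were searched for 6 motifs, and matches were allowed to overlap. TATAAA was in 13.6% of all windows and GGGCGG in 35.7%. The amino acid response element core TGATGNAA, bound by ATF4 when amino acids are short, was in 3.97% of all windows and in none of the windows of the 8 genes. CACGTG was in 7.15% of windows, CATGTG in 14.2% and TGANTCA in 7.81%. These matches are letters in a window, not sites of binding.

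Ddr2, the kinase typical of mesenchymal cells, was lowest in all 3 adequate libraries. It had 130.8, 138.1 and 132.6 CPM in the deficient libraries and 111.6, 126.7 and 100.1 CPM in the restricted libraries. The supplemented libraries had 86.2 CPM at the lowest, 109.7 CPM as their median and 122.7 CPM at the highest. The adequate libraries had 65.1, 48.1 and 60.7 CPM. Each of the 12 libraries of the other diets was above each of the 3 adequate libraries, and Ddr2 was the 1 receptor of 8 with that pattern. It reuses the values that chose Ddr2, so the deficient libraries had to be high and the adequate libraries low. Low adequate libraries also favour a place of the other diets above them. The 157 of 16001 genes (0.981%) with the same pattern are given for description. Exons of Ddr2 overlap an antisense gene in GENCODE, and without a stated strand setting reads of that pair cannot be told apart. The means were 133.8 ± 3.8 CPM in deficient (SD, n = 3), 112.8 ± 13.4 in restricted (n = 3), 109.1 ± 13.6 in supplemented (n = 6) and 58.0 ± 8.81 in adequate libraries (n = 3).

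**Figure D1:**
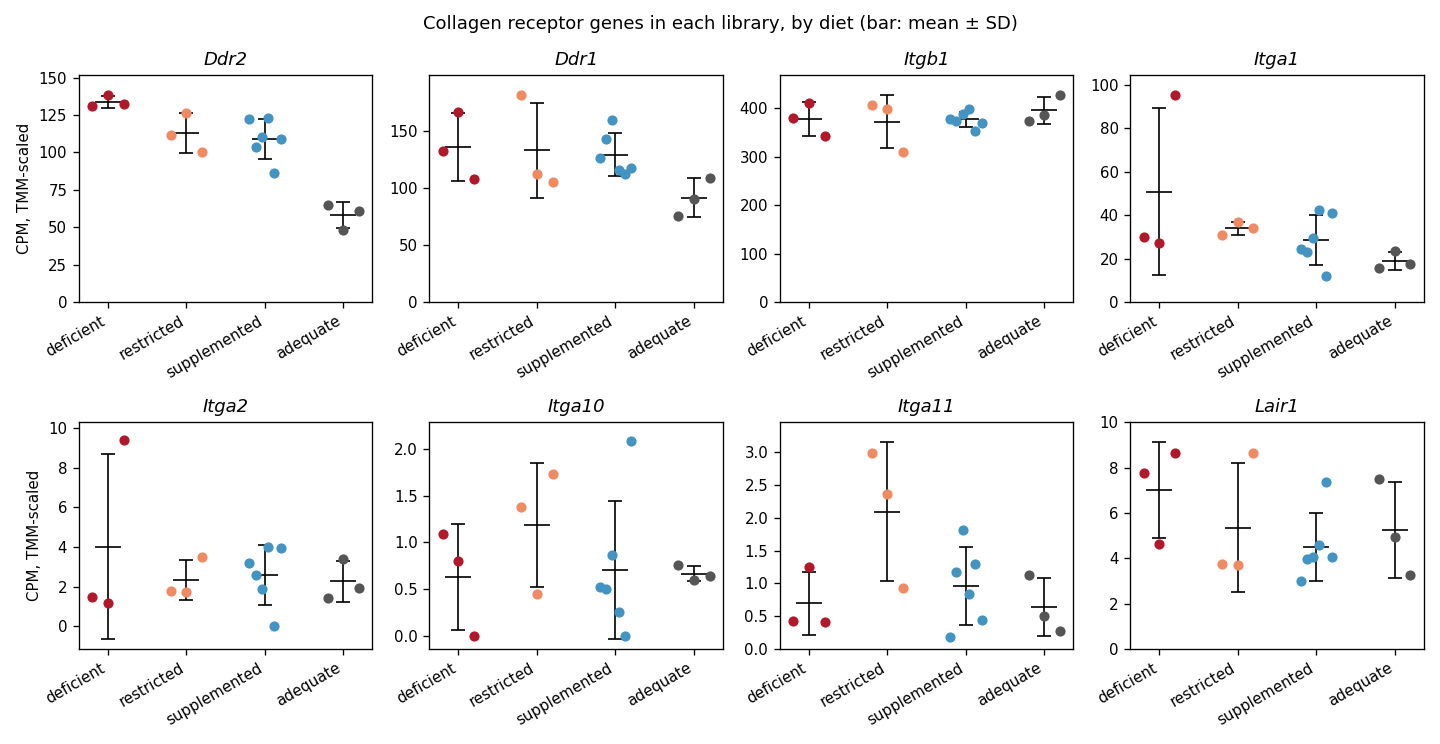
Each point is a library, the vertical axis is TMM-scaled CPM from 0 upwards, and the bars are the mean ± SD of a diet (3 deficient, 3 restricted, 6 supplemented and 3 adequate libraries). Ddr2 at 48.1 to 65.1 CPM in adequate libraries is below every other library, and Itgb1 stays between 308.9 and 426.3 CPM.

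In the comparison that chose it, deficient against adequate, Ddr2 differed by a log2 fold change of 1.21 ± 0.17 (SE). It was the 1 gene called there, 0.00625% of those tested (DESeq2 called 3.67%, Ddr2 and Itga1 among them), and nothing is read from that here. Between the restricted and adequate diets the fold change was 0.96 ± 0.17 (log2, 95% interval 0.60 to 1.32), with an adjusted p of 0.114. Between the supplemented and adequate diets it was 0.91 ± 0.15 (0.59 to 1.23), with an adjusted p of 0.146. Neither passed 0.05 in edgeR's test, which called none of the 16001 genes in either comparison (0% each), although Ddr2 and Ddr1 were the 2 of 8 receptors with an unadjusted p under 0.05 in each, where 9.17% and 9.77% of all genes had one. DESeq2 called Ddr2 in both, with adjusted p of 7.84e-05 for restricted and 2.23e-06 for supplemented, and called 0.819% and 0.856% of all genes. With limma-voom the adjusted p was 0.138 for restricted and 0.052 for supplemented. The call for deficient was lost with no filter on low counts, with only the 2 diets in the fit, with an alveolar marker covariate and without any of 5 single libraries (adequate replicates 2 and 3, deficient replicates 1, 2 and 3). Without the 3 libraries that stood apart, edgeR called Ddr2 against adequate in all 3 diets, with 0.0306% of genes called for deficient, 0.404% for restricted (adjusted p = 0.0179) and 0.0122% for supplemented (adjusted p = 0.0203). All 3 comparisons use the same adequate libraries, so they are not separate evidence of a low level on the adequate diet.

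No difference in Ddr2 among the other diets passed the test. The restricted and supplemented diets, neither of which stood in the comparison that chose it, though their libraries entered the shared estimate of the spread, differed by 0.05 ± 0.14 (log2, 95% interval -0.26 to 0.35), with an adjusted p of 1 and 0% of genes called. Its libraries overlapped between those diets, as did those of the other 7 receptors, while 1.32% of all genes were higher in restricted without overlap. The sign of that difference is not stable, as given among the processing alternatives. The deficient diet differed from the restricted by 0.25 ± 0.17 (-0.11 to 0.60), with an adjusted p of 0.794, and from the supplemented by 0.29 ± 0.14 (-0.01 to 0.60), with an adjusted p of 0.87. In each of those 2 comparisons Ddr2 was the 1 receptor of 8 whose libraries did not overlap. It was higher in the deficient diet, as were 4.71% and 1.01% of all genes. Both comparisons share the deficient libraries with the one that chose Ddr2, which favours such a result, so it is given for description only. In these 3 comparisons edgeR called 0 of the 8 receptors and of all genes, and DESeq2 called 0 receptors and 0.0562%, 0% and 0% of genes for deficient against restricted, deficient against supplemented and restricted against supplemented. At an unadjusted p under 0.05 the receptors numbered 0, 1 (Itga1) and 0 in that order of comparisons, with 7.44%, 5.45% and 2.18% of all genes.

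Ddr1, the other discoidin kinase, had a smaller difference that did not pass the test. It had 132.5, 167.1 and 107.7 CPM in deficient libraries, 181.4, 112.8 and 105.4 in restricted libraries, 112.3 to 160.1 (median 122.2) in supplemented libraries, and 75.4, 90.5 and 109.0 CPM in adequate libraries. The supplemented libraries did not overlap the adequate ones, whereas the deficient and restricted libraries did. Log2 fold changes against the adequate diet were 0.57 ± 0.23 for deficient, 0.54 ± 0.23 for restricted (adjusted p = 0.505) and 0.50 ± 0.21 for supplemented (adjusted p = 0.482). Per kilobase of transcript, Ddr2 stood at 0.482 to 0.718 of the Ddr1 level in deficient libraries, 0.359 to 0.655 in restricted, 0.401 to 0.616 in supplemented and 0.310 to 0.504 in adequate libraries. These ranges overlap, so the balance of the 2 kinases did not separate the diets.

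Itgb1, the shared beta subunit, was the most even of the 8. Its means were 378.0 ± 34.4 CPM in deficient, 371.8 ± 54.6 in restricted, 376.8 ± 15.5 in supplemented and 395.7 ± 27.3 CPM in adequate libraries, and its highest library was 1.38 times its lowest. Against the adequate diet its log2 fold change was -0.07 ± 0.15 for deficient, -0.09 ± 0.15 for restricted (95% interval -0.42 to 0.24) and -0.07 ± 0.13 for supplemented (-0.35 to 0.21). These intervals leave room for modest differences in either direction.

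Itga1, which pairs with beta1 and favours basement membrane collagen, was the alpha subunit with the most reads. It had 29.8, 27.3 and 95.2 CPM in deficient libraries, 30.7, 36.8 and 34.2 in restricted, 11.9 to 42.2 (median 27) in supplemented and 15.7, 23.6 and 17.3 CPM in adequate libraries. Deficient and restricted libraries lay above the adequate ones without overlap, and supplemented libraries did not. Log2 fold changes were 1.42 ± 0.46 for deficient against adequate, 0.84 ± 0.46 for restricted against adequate (adjusted p = 0.625) and 0.61 ± 0.40 for supplemented against adequate (adjusted p = 0.654). The value of 95.2 CPM was in deficient replicate 3, whose 12 endothelial markers summed to 2307 CPM, against 312.1 and 427.3 CPM in the other deficient libraries. Without that library the deficient against adequate log2 fold change was 0.60. Of 8 receptors, 2 had libraries above the adequate ones without overlap in the deficient diet, where 7.91% of all genes did. The count was 2 in the restricted diet (8.54% of genes) and 2 in the supplemented diet (2.17% of genes). Ddr2, chosen from the deficient and adequate libraries, was among them in each diet, so these counts are given for description only.

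**Figure D2:**
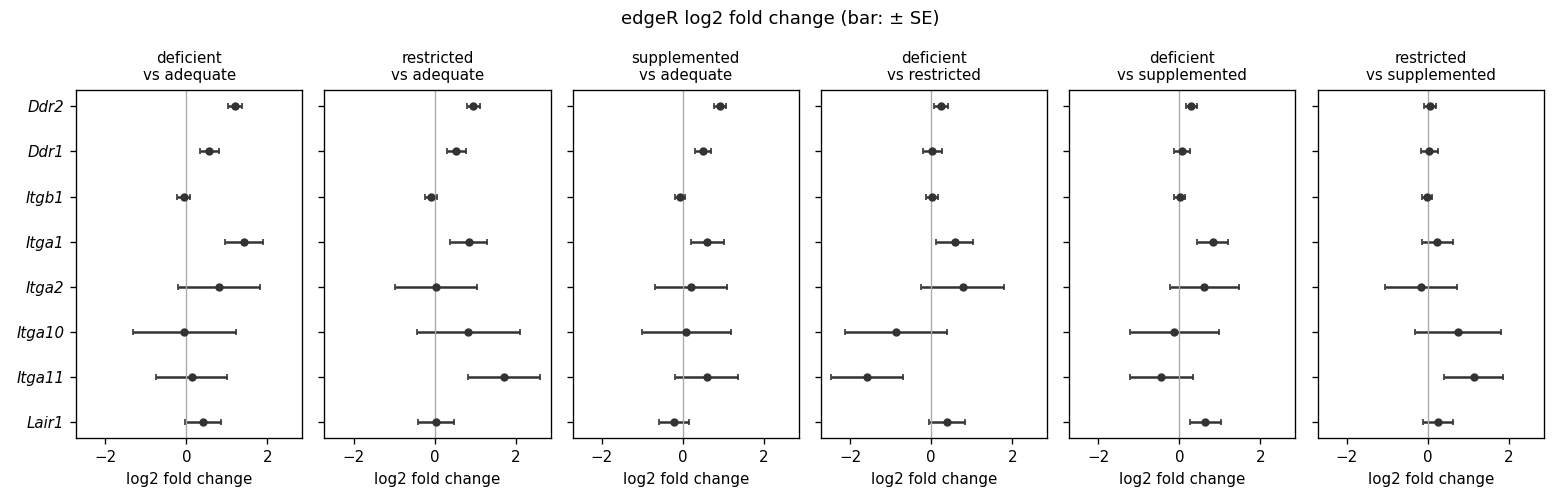
Each panel is a comparison of 2 diets, the horizontal axis is the edgeR log2 fold change of the first diet over the second, and bars are ± SE. Ddr2 has a value of 0.91 to 1.21 in the 3 comparisons with the adequate diet and 0.05 to 0.29 in the other 3, and the rarely read alpha subunits have the longest bars.

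The remaining alpha subunits were too rarely read for a difference between diets to be judged. Itga2, found on epithelial cells and platelets, averaged 4.02 ± 4.65 CPM in deficient, 2.33 ± 1.02 in restricted, 2.61 ± 1.51 in supplemented and 2.27 ± 1.02 CPM in adequate libraries. Deficient replicate 3 alone reached 9.39 CPM, and supplemented replicate 5 had 0 counts, which allows up to 0.186 CPM from counting error alone. Itga11, a fibroblast subunit, had 0.424, 1.25 and 0.405 CPM in deficient, 2.99, 2.37 and 0.925 in restricted, 0.176 to 1.81 (median 1.00) in supplemented and 1.13, 0.501 and 0.273 CPM in adequate libraries. Its restricted against adequate log2 fold change was 1.72 ± 0.89, with an adjusted p of 0.599. Itga10, a cartilage subunit, had 225 counts over all libraries together and 0 in deficient replicate 3 (up to 0.203 CPM) and supplemented replicate 5 (up to 0.186 CPM). Lair1 averaged 7.01 ± 2.12 CPM in deficient, 5.36 ± 2.84 in restricted, 4.5 ± 1.5 in supplemented and 5.25 ± 2.13 CPM in adequate libraries, and its diets overlapped throughout.

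Levels between genes are compared per kilobase of effective transcript length. Over the 15 libraries Itgb1 had 103.1 ± 7.96 CPM per kilobase, Ddr1 43.5 ± 10.1, Ddr2 21.4 ± 5.71, Itga1 5.50 ± 3.33, Lair1 3.42 ± 1.31, Itga2 0.678 ± 0.527, Itga11 0.221 ± 0.167 and Itga10 0.168 ± 0.127. The top of the order held in all 15 libraries, down to Itga1. Itga1 was above Lair1 in 13 of 15 libraries, Itga2 above Itga11 in 12, and Itga11 above Itga10 in 9, so the last pairs are not set apart by their spread. Itga1 made up 78.2% to 88.3% of the summed level of the 4 alpha subunits in every library, and Itgb1 stood at 4.99 to 41.7 times that sum.

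**Figure D3:**
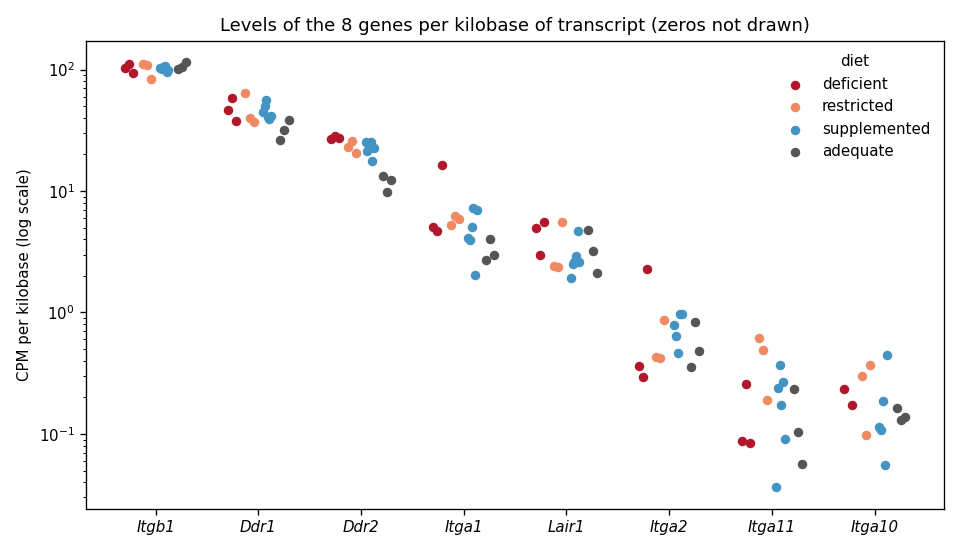
Each point is a library, coloured by diet, and the vertical axis is CPM per kilobase on a log scale, with libraries at 0 not drawn. Itgb1 is highest at a mean of 103.1, and Itga10 is lowest at a mean of 0.168.

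To see which cell markers the receptors followed, each receptor was correlated with the mean log2 CPM of 14 marker lists over the 15 libraries, 112 pairs in all. Of these, 14 pairs passed an adjusted permutation p of 0.05 by Pearson's r, 5 by Spearman's rho and 18 by r within diets. By r, Itga1 accounted for 7, Itga2 for 5, Ddr2 and Lair1 for 1 each, and Ddr1 for 0. The r of Ddr1 was -0.08 with general epithelial markers (adjusted permutation p = 0.892). It was 0.54 with pericyte and smooth muscle (adjusted 0.187) and 0.38 with melanocyte markers (adjusted 0.369). With macrophage markers the r of Ddr1 was -0.26, -0.67 within diets and 0.44 on log2(TPM + 1). Itga1 followed the 12 endothelial markers, with r of 0.89 (permutation p = 2e-05, adjusted 0.00224) and rho of 0.78 (permutation p = 0.00101, adjusted 0.0262). The r was 0.75 without the 2 libraries farthest from the median and 0.90 within diets. By r, Itga1 also passed with platelet (0.75), alveolar type 1 (0.73) and pericyte and smooth muscle (0.72) markers. It passed too with T and NK cell, airway and general epithelial markers (0.71 each), so it did not follow endothelial markers alone. Lair1 followed the 10 macrophage markers, with r of 0.69 (permutation p = 0.0027, adjusted 0.0326), rho of 0.73 (permutation p = 0.00271, adjusted 0.0506), r of 0.60 without the 2 farthest libraries and 0.71 within diets. Itga2 followed the 6 general epithelial markers, with r of 0.87 (permutation p = 0.00014, adjusted 0.007), rho of 0.78 (permutation p = 0.001, adjusted 0.0262), r of 0.57 without the 2 farthest libraries and 0.90 within diets. By r, Itga2 also passed with alveolar type 2 (0.84), alveolar type 1 (0.83), platelet (0.81) and neutrophil (0.70) markers, so no single cell type is set apart. Without the 2 farthest libraries, or without the 3 libraries that stood apart, 0 of the 112 pairs passed after adjustment. Those tests had fewer libraries. The r of Itga1 with endothelial markers was then 0.75 and 0.68. Itgb1 ran against the 10 macrophage markers by rho, at -0.81 (permutation p = 0.00057, adjusted 0.0262), with r of -0.62 (permutation p = 0.0188, adjusted 0.111), -0.56 without the 2 farthest libraries and -0.75 within diets, but r was 0.50 on log2(TPM + 1), the opposite sign.

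On log2 CPM, Ddr2 showed no correlation that passed with the 13 fibroblast markers. The r was 0.26 (permutation p = 0.342, adjusted 0.63) and rho was 0.22 (permutation p = 0.436, adjusted 0.703). Within diets that r was -0.50. Ddr2 had an r of 0.69 with the 10 pericyte and smooth muscle markers (permutation p = 0.00414, adjusted 0.0357) and a rho of 0.71 (permutation p = 0.00422, adjusted 0.0591). The r was 0.61 without the 2 farthest libraries but 0.10 within diets, so the relation rests on the difference between diets. Ddr2 was chosen for a difference between the deficient and adequate diets, which favours an r with any list that is low in adequate libraries. The r over all 15 libraries and its p are therefore given for description only. Those markers summed to 202.1 to 449.1 CPM in deficient, 210.3 to 317.9 in restricted, 185.9 to 764.5 in supplemented and 115.3 to 140.4 CPM in adequate libraries, with all 10 detected in each diet. The 764.5 CPM was in supplemented replicate 5, the library with 1567 CPM of skeletal muscle markers. The next highest supplemented library, replicate 3, had 290.8 CPM. The part of the pericyte and smooth muscle markers in the low Ddr2 level of the adequate libraries was not tested. Ddr2 had an r of 0.02 with the melanocyte markers (permutation p = 0.949, adjusted 0.958) and a rho of -0.22 (permutation p = 0.428, adjusted 0.703). These low values depend on the scale. On log2(TPM + 1) the r of Ddr2 was 0.68 with melanocyte, 0.60 with fibroblast and 0.83 with pericyte and smooth muscle markers. TPM was used as deposited, without TMM scaling. In adequate replicate 1, where the 10 most abundant genes took 46.5% of counts, Itgb1 was at 17.1 TPM. The other adequate libraries had 48.7 and 52.6 TPM of Itgb1. On the CPM scale Itgb1 was at 373.8 in adequate replicate 1, against 387.0 and 426.3 in those libraries. What that library adds to the r on TPM was not tested.

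**Figure D4:**
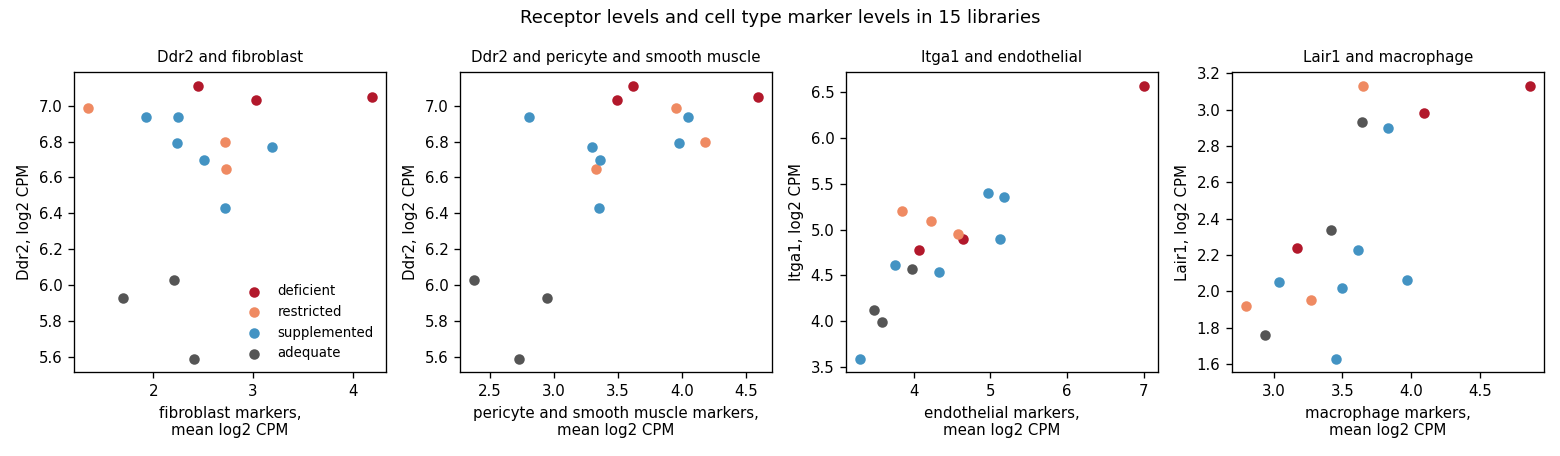
Each point is a library, both axes are log2 CPM, and colours mark the diets. Adequate libraries are lowest in Ddr2 in the first 2 panels, and Itga1 climbs with the endothelial markers (r of 0.89) up to deficient replicate 3.

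Genes whose levels moved most like Ddr2 over the 15 libraries were ranked by Pearson's r among 11864 genes, as a description with no test. They were Pafah2 (0.93), Ankfy1 (0.92), Atp9b (0.91), Unc13b (0.90) and Dpp9 (0.89). On deviations from the diet means the first 5 were Lpin3 (0.89), Pafah2 (0.89), E2f5 (0.86), Ndufaf3 (0.85) and Anxa2 (0.84). Pafah2, which encodes a platelet-activating factor hydrolase, was in both sets. It had 27.5 to 40.9 CPM in the other diets and 20.7 to 26.6 CPM in adequate libraries.

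Around the receptors, the ligands and partners were followed in the comparisons with the adequate diet, where edgeR called none of the genes below at an adjusted p of 0.05. Of the 11 fibril-forming collagen genes, those with an unadjusted p under 0.05 were 3 higher and 1 lower for deficient, 3 and 1 for restricted, and 2 and 1 for supplemented. Over all genes 9.29% were higher and 5.84% lower for deficient, 4.87% and 4.31% for restricted, and 4.85% and 4.92% for supplemented. DESeq2 called Col2a1, the cartilage collagen, lower for deficient and Col1a1 higher for supplemented, where it called 3.67% and 0.856% of all genes. The list's median log2 fold change was 0.46 for deficient, 0.43 for restricted and 0.36 for supplemented, beside medians over all genes of 0.04, 0.00 and 0.03. The 2 most abundant per kilobase were the type I collagen chains. Col1a2 averaged 210.2 ± 18.1 CPM in deficient, 221.6 ± 78.6 in restricted, 191.5 ± 104.4 in supplemented and 108.5 ± 31.2 CPM in adequate libraries. Col1a1 averaged 190.6 ± 31.0 CPM in deficient, 217.2 ± 53.2 in restricted, 219.3 ± 126.0 in supplemented and 86.8 ± 36.6 CPM in adequate libraries.

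The 9 collagen genes of networks and basement membranes had median log2 fold changes of 0.82 for deficient, -0.12 for restricted and 0.56 for supplemented, with 2, 0 and 0 genes higher at an unadjusted p under 0.05, where 9.29%, 4.87% and 4.85% of all genes were. Col4a1, a chain of basement membrane collagen, averaged 574.5 ± 72.9 CPM in deficient, 565.6 ± 59.3 in restricted, 494.3 ± 189.0 in supplemented and 352.3 ± 186.8 CPM in adequate libraries. All 7 other beta integrin genes had a log2 fold change above 0 in each diet, where 52.9% of all genes did for deficient, 50.4% for restricted and 52.9% for supplemented. Of them 3, 2 and 1 were higher at an unadjusted p under 0.05, beside 9.29%, 4.87% and 4.85% of all genes. DESeq2 called Itgb2, Itgb5 and Itgb7 for deficient, where it called 3.67% of all genes. Itgb2, the leukocyte beta subunit, averaged 60.2 ± 36.3 CPM in deficient, 35.9 ± 12.3 in restricted, 33.0 ± 12.8 in supplemented and 23.0 ± 3.01 CPM in adequate libraries. Among the other collagen receptors, Mrc2, which takes up collagen by endocytosis, averaged 31.2 ± 34.7 CPM in deficient, 10.3 ± 4.19 in restricted, 14.4 ± 5.37 in supplemented and 4.3 ± 0.885 CPM in adequate libraries. Its deficient libraries had 13.1, 9.33 and 71.3 CPM, the highest being deficient replicate 3.

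Of the 19 genes of discoidin receptor signalling, 14 had a log2 fold change above 0 in deficient, 9 in restricted and 13 in supplemented against adequate, beside 52.9%, 50.4% and 52.9% of all genes. At an unadjusted p under 0.05, 3, 1 and 1 were higher, beside 9.29%, 4.87% and 4.85% of all genes. DESeq2 called Myh9 for deficient, where it called 3.67% of all genes. Myh9, a non-muscle myosin heavy chain, averaged 849.8 ± 63.7 CPM in deficient, 707.5 ± 92.7 in restricted, 688.6 ± 121.3 in supplemented and 485.2 ± 196.7 CPM in adequate libraries. Mmp14, a membrane collagenase, averaged 192.6 ± 42.5 CPM in deficient, 254.2 ± 41.8 in restricted, 239.8 ± 33.5 in supplemented and 279.1 ± 111.6 CPM in adequate libraries.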

How the data were processed

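Per the submitters' processing notes, the authors used Bowtie2 2.2.9, RSEM 1.30, edgeR and the NCBIM37 build, with the roles of these tools, the strand setting and any annotation version not given in the sources used here. The deposited tables hold RSEM expected counts and TPM per gene, made by the authors, with effective transcript lengths, for 15 libraries from a strand-marking total RNA kit. Expected counts were rounded, genes filtered with filterByExpr, scaled by TMM and tested with edgeR 4.0.16 (R 4.3.3) quasi-likelihood over all 15 libraries with a mean per diet (11 residual degrees of freedom) and Benjamini-Hochberg adjustment over 16001 genes. SE is the fold change divided by the root of F. Alternatives were DESeq2 1.42.0 and limma-voom (limma 3.58.1), no filter, other size factors, fewer libraries and an alveolar marker covariate. Correlations used log2 CPM (prior count 2) with 100000 permutations. TPM, used as deposited without TMM scaling, served as an alternative scale. The scripts were tested on simulated data. Within-diet library pairs differed far beyond sampling noise (chi-square per degree of freedom 27.9 to 342), so none was treated as a library deposited again; this does not show that they came from separate mice. Named genes are the 8 receptors, the 5 genes most like Ddr2 by r, and from pathway lists the 2 most abundant per kilobase, of which some are printed; other list genes called by DESeq2 were named after their values were seen; a result that names a withheld item is not reported here. The members and lists were chosen with earlier results of these data known. Exons of Ddr2 and Ddr1 overlap antisense genes in GENCODE, and those of Itga1 and Itga10 same-strand genes, and shared reads were not separated. Floors of 3 counts cover counting error only. RefSeq promoters matched all 8 symbols.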

Additional observations from a re-analysis of the deposited data

Results flagged for a closer look

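Lair1 in supplemented replicate 5 was at 7.38 CPM, while the other 5 supplemented libraries were at 3 to 4.57 CPM. Its gap to the nearest library was 0.64 of the group's range, above the limit of 0.625 for 6 samples. The 8 receptors were each looked at in the supplemented diet and 1 stood out, where chance alone marks about 1 group in 20. That library was also the one with 1567 CPM of skeletal muscle markers and 0 counts of Itga2 and Itga10.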

How the results depend on the processing

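The receptors called against the adequate diet changed with the method. For deficient, 1 was called by edgeR, 2 by DESeq2 (Ddr2 and Itga1), and 0 with no filter on low counts, with only the libraries of the 2 diets or with the alveolar covariate. Leaving out 1 library gave 0 to 1, with 0 without adequate replicate 2 or 3 or any of deficient replicates 1, 2 and 3. For restricted, 0 were called by edgeR but 1, Ddr2, by DESeq2 (log2 fold change 0.95, adjusted p = 7.84e-05), with the alveolar covariate (0.98, adjusted p = 0.0346) and without the 3 libraries that stand apart (1.03, adjusted p = 0.0179). For supplemented, 0 were called by edgeR but 1, Ddr2, by DESeq2 (0.92, adjusted p = 2.23e-06) and without those 3 libraries (1.06, adjusted p = 0.0203). Leaving out 1 library at a time, the Ddr2 fold change stayed at 1.09 to 1.29 for deficient, 0.84 to 1.04 for restricted (adjusted p 0.0757 to 0.508) and 0.79 to 0.99 for supplemented (adjusted p 0.0887 to 0.398). The cause of these shifts was not tested.

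Against the supplemented diet, restricted Ddr2 reversed to -0.03 and Ddr1 to -0.01 without the 3 libraries. Itga1 reversed for deficient against restricted to -0.23 with the alveolar covariate and -0.23 without the 3 libraries, and for deficient against supplemented to -0.17 without them. Itga2 reversed for deficient against adequate to -0.01 (limma-voom), -0.41 (covariate) and -1.0 (without the 3), for restricted against adequate to -0.02 (limma-voom) and -0.23 (without the 3), for supplemented against adequate to -0.43 (limma-voom) and -0.13 (covariate), for deficient against restricted to -1.32 (covariate) and -0.77 (without the 3), for deficient against supplemented to -0.27 (covariate) and -1.22 (without the 3), and for restricted against supplemented to 0.42 (limma-voom) and 1.05 (covariate). Itga10 reversed for deficient against adequate to 0.61 (without the 3), for supplemented against adequate to -0.74 (limma-voom) and -0.30 (covariate), and for deficient against supplemented to 0.22 (covariate) and 0.18 (without the 3).

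With 1 library left out at a time, these fold changes crossed 0. For deficient against adequate the ranges were -0.75 to 1.24 (Itga2), -0.13 to 0.00 (Itgb1), -0.60 to 0.83 (Itga11) and -0.72 to 0.51 (Itga10). For restricted against adequate they were -0.38 to 0.45 (Itga2), -0.17 to 0.03 (Itgb1) and -0.49 to 0.36 (Lair1). For supplemented against adequate they were -0.05 to 0.62 (Itga2), -0.47 to 0.11 (Lair1) and -0.63 to 0.34 (Itga10). For deficient against restricted they were -0.15 to 0.32 (Ddr1), -0.79 to 1.21 (Itga2), -0.10 to 0.10 (Itgb1) and -0.25 to 0.87 (Itga1). For deficient against supplemented they were -0.11 to 0.21 (Ddr1), -0.95 to 1.04 (Itga2), -0.06 to 0.07 (Itgb1), -0.01 to 1.11 (Itga1) and -0.77 to 0.58 (Itga10). For restricted against supplemented they were -0.25 to 0.19 (Ddr1), -0.58 to 0.01 (Itga2), -0.09 to 0.10 (Itgb1), -0.04 to 0.13 (Ddr2) and -0.27 to 0.47 (Lair1).

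Of 112 correlations, 14 passed on log2 CPM and 28 on log2(TPM + 1), a scale without TMM. On log2 CPM, 0 passed without the 2 libraries farthest from the median marker level and 0 without the 3 libraries. No paired analysis was possible because the labels give no replicate numbers or pairing, and the numbers used here are only names. Depth limits Itga2, Itga10 and Itga11, whose reads were few.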

Other observations

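In the deficient against adequate comparison DESeq2 called 3.67% of all genes. Some genes near the receptors were among them but were not called by edgeR, and are named after their values were seen. Their edgeR log2 fold changes were 2.85 ± 0.66 for Mrc2, 1.46 ± 0.34 for Itgb5, which encodes a partner of the alpha v subunit, and 1.28 ± 0.27 for Adamts2, which trims the amino end of procollagen. The edgeR adjusted p was 0.149 for each of the 3. Without deficient replicate 3, an alternative chosen after seeing the data, the log2 fold change was 1.38 ± 0.45 for Mrc2 (adjusted p = 0.527), 0.98 ± 0.29 for Itgb5 (adjusted p = 0.527) and 1.13 ± 0.29 for Adamts2 (adjusted p = 0.465). For restricted against adequate, Adamts2 was at 1.12 ± 0.27 (adjusted p = 0.247). For supplemented against adequate, Adamts2 was at 0.79 ± 0.24 (adjusted p = 0.35). The 3 comparisons share the adequate libraries.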
